A study of Mus musculus with 16 samples.

Results

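Hemoglobin genes were followed in RNA-seq of mouse bone marrow, of samples labelled MSC and of MC38 tumors. The set named 8 genes, chosen by symbol: the adult alpha globins Hba-a1 and Hba-a2, the adult beta globins Hbb-bs and Hbb-bt, the embryonic globins Hba-x, Hbb-y and Hbb-bh1, and the alpha chaperone Ahsp. Of these, 7 were matched to a row among the 55536 rows of the count table, and Ahsp is not analysed here. Each tissue was taken from wild-type (WT) mice and from mice with the K74R change in a KLF gene, a lysine replaced by arginine in a Krüppel-like transcription factor. The sample titles call the mutant animals KO, whereas the genotype field gives K74R, and the family member is not specified. There were 3 WT and 3 K74R libraries of bone marrow, 2 and 2 of MSC, and 3 and 3 of tumor. MC38 is a line of mouse colon adenocarcinoma cells, tumors were up to 1000 mm3 in volume, and the genotype of a tumor library was taken to be that of the host mouse. MSC is not spelled out in the labels. No label says that the libraries of a group came from separate mice, so p-values measure the spread between these libraries, which may be technical. The sources used here give neither age nor strain.

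Hemoglobin of red cells is a tetramer of alpha-type and beta-type chains, encoded in separate gene clusters and produced in near balance. In the mouse, the first red cells of the yolk sac express the embryonic genes, and red cells made in the fetal liver and later in the bone marrow express the adult genes. KLF factors bind DNA elements of the CACCC type, and KLF1, the red-cell member of the family, is known for activating the adult beta globin genes.

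The beta cluster lay on the minus strand of chromosome 7 and the alpha cluster on the plus strand of chromosome 11 (GRCm38). Hbb-bt spanned chr7:103812524-103813996 and Hbb-bs chr7:103826534-103828096, and both are protein-coding genes expressed from the fetal stage on. The embryonic beta genes followed, with Hbb-bh1 at chr7:103841637-103843164 and Hbb-y at chr7:103851749-103853216. In the alpha cluster, Hba-x, which encodes the zeta chain, spanned chr11:32276400-32278116. Hba-a1 lay at chr11:32283511-32284465 and Hba-a2 at chr11:32296489-32297298, and both encode the adult alpha chain.

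Promoter sequences are shown because the mutated protein belongs to a family that reads CACCC elements. RefSeq promoters on GRCm38.p6 were found for 6 of the 8 genes. The 130 bases before the RefSeq start are given 5′ to 3′ for 5 of them, on the minus strand for Hbb-bt (chr7:103813924-103814053), Hbb-bs (chr7:103827929-103828058) and Hbb-y (chr7:103853208-103853337), and on the plus strand for Hba-x (chr11:32276470-32276599) and Hba-a1 (chr11:32283542-32283671). For these 5 genes the GENCODE spans given above reach further upstream than the RefSeq starts, so the stretches lie wholly or partly inside those spans. Capitals mark CCNCNCCC and the shorter CACCC, which can lie inside it, as well as the CCAAT box and the TATAA box, each on either strand.
Hbb-bt: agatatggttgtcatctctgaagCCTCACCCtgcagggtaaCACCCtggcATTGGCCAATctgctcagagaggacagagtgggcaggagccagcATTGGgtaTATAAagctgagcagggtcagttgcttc
Hbb-bs: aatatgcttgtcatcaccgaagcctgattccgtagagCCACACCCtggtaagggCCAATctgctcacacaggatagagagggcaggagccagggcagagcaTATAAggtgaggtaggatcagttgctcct
Hbb-y: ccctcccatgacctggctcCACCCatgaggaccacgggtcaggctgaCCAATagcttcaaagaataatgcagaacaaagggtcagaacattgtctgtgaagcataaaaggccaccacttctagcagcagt
Hba-x: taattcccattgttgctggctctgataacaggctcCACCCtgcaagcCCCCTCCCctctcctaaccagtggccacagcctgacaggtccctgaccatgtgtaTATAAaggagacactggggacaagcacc
Hba-a1: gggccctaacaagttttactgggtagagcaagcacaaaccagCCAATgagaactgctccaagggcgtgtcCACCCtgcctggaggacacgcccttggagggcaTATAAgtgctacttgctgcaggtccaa

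In the 250 bases before the start, CACCC was found in all 6 promoters, including Hba-a2, against 51.3% of 27025 promoters of the same length. CCAAT was found in all but Hba-x (34.5% of promoters) and TATAA in all but Hbb-y (23.5%). CCNCNCCC, found in 45.6% of promoters, was present in Hbb-bt, Hbb-bs and Hba-x, and AGATAA, found in 10.3%, in Hbb-bs alone. In Hbb-bs the CCNCNCCC match began at position -93 from the start, the CCAAT match at -76 and the TATAA match at -29. In Hbb-bt the CCNCNCCC match began at -107, followed by another CACCC at -89, CCAAT at -80, -75 and -36, and TATAA at -28. Shared runs were counted on the whole promoter entries, which reach past the start. Those of Hba-a1 and Hba-a2 shared a run of 297 bases, which is why only Hba-a1 is printed. The longest run shared by Hbb-bs and Hbb-bt was 14 bases. In the 250 bases before the start, 69.3% of the aligned columns of Hbb-bs and Hbb-bt were identical. A motif match describes the sequence only, and binding was not measured in these libraries.

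The transcripts of the adult pairs are also close copies. Of the 50-base windows of the Hba-a2 transcript, 86.9% occurred in Hba-a1, and 67.5% of the Hba-a1 windows occurred in Hba-a2. Between the beta genes, 65.8% of Hbb-bs windows occurred in Hbb-bt and 58.3% of Hbb-bt windows in Hbb-bs. None of the windows of Hba-x, Hbb-y or Hbb-bh1 occurred in the adult gene it was compared with. The sources used here do not say how reads that fit several places were counted. The split between Hba-a1 and Hba-a2 and between Hbb-bs and Hbb-bt is therefore uncertain. Their sums are less so, but would be lower if such reads were left out, by a share that can differ between the pairs.

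Library totals ran from 14067259 to 18923751 counts, and 3 counts, the most that an observed 0 can hide, corresponded to 0.159 to 0.213 CPM (counts scaled to a common library total), for counting error only. Against their own marker lists, 29 of 30 erythroid genes reached a mean of 1 CPM in bone marrow of both genotypes. In MSC libraries, Col1a1 and other mesenchymal markers were present beside the blood cell markers Ptprc and Csf1r. In tumors, the epithelial markers Epcam and Krt8 stood below 1 CPM in every library, and Cdh1 lay between 3.95 and 8.14 CPM. Only 1 of 8 epithelial markers reached a mean of 1 CPM in tumors of either genotype. Cdh1 was higher in bone marrow, at 8.55 to 12.9 CPM.

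Bone marrow was the only one of these tissues with abundant globin RNA. The 4 adult genes took 2.65%, 2.73% and 3.30% of all counts in the WT libraries and 3.17%, 3.50% and 2.86% in the K74R libraries. Per kilobase of merged annotated exons, Hbb-bs was the highest in every bone marrow library, at 20912 to 28159 CPM per kb. Hba-a1 followed at 7884 to 11037, Hbb-bt at 3491 to 5141 and Hba-a2 at 1118 to 2044 CPM per kb, and no neighbours in this order overlapped. The order rests on the uncertain split of reads between copies. Of the 50-base windows, 211 of Hba-a1 were not found in Hba-a2, and 66 of Hba-a2 were not found in Hba-a1. Fewer red-cell precursors and less globin RNA per precursor cannot be told apart in such bulk samples.

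None of the adult globin genes passed edgeR's quasi-likelihood test between the genotypes in bone marrow at a Benjamini-Hochberg adjusted p of 0.05. Of the 7 matched genes, 4 passed the filter on low counts and 0 of these 4 were called, where 0.773% of 14872 genes were called. At an unadjusted p under 0.05 there was 1 of 4 (Hba-a2), where 17.8% of all genes stood below it. In 0 of the 4 were the genotypes free of overlap, against 22.9% of all genes. The median log2 fold change of the 4 (K74R over WT) was 0.13, and that of all genes tested was -0.00052.

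For Hbb-bs, the adult beta globin gene with more counts, the WT bone marrow libraries gave 16060, 16822 and 21626 CPM. The K74R libraries gave 18707, 21332 and 16354 CPM. The highest and the lowest library were both WT, and the log2 fold change was 0.05 (SE 0.16, adjusted p = 0.901). For Hbb-bt, the adult beta gene with fewer counts, WT libraries gave 2512, 2735 and 3614 CPM against 3149, 3402 and 2454 CPM for K74R. Its genotypes overlapped too, with a log2 fold change of 0.02 (SE 0.16, adjusted p = 0.956). The sign of both beta values turned in some fits without 1 library.

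For Hba-a1, the adult alpha globin gene with more counts, WT bone marrow gave 7697, 6402 and 8002 CPM against 8954, 8962 and 7672 CPM for K74R. K74R libraries 1 and 2 lay above all WT libraries and K74R library 3 lay within them, and the log2 fold change was 0.21 (SE 0.13, adjusted p = 0.416). The other adult alpha gene, Hba-a2, had WT levels of 837.9, 745.8 and 1069 CPM and K74R levels of 1175, 1363 and 1046 CPM. Here K74R library 3 lay just below WT library 3, and the other K74R libraries lay above every WT library. The log2 fold change of Hba-a2 was 0.43 (SE 0.14, adjusted p = 0.179, unadjusted p = 0.0143). Hba-a2 passed the threshold without the filter on low counts (adjusted p = 0.00967) and with DESeq2 (adjusted p = 0.0443), and over all 16 alternatives its adjusted p ran from 0.00967 to 0.817.

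**Figure D1:**
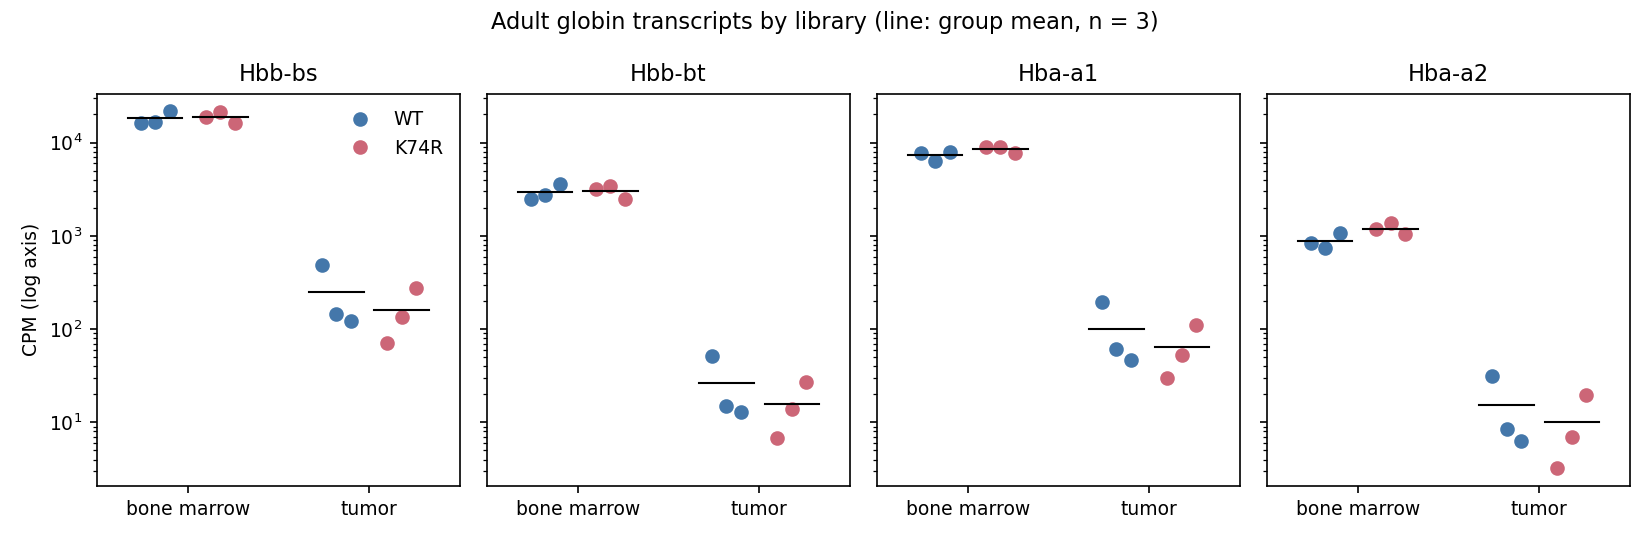
CPM of the 4 adult globin genes on a log axis, 1 point per library, WT in blue and K74R in red, with a line at each group mean (n = 3 libraries). In bone marrow the genotypes overlap for each gene, and in tumors WT library 1 is the highest for each gene.

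Copy shares were compared within libraries, where the scaling between libraries has no part. Hba-a2 made up 9.82%, 10.4% and 11.8% of adult alpha counts in WT bone marrow and 11.6%, 13.2% and 12.0% in K74R bone marrow. K74R library 1 lay below WT library 3, so the genotypes overlapped, and the difference of the means was 1.59 percentage points (exact two-sided permutation test, p = 0.2). Hbb-bt made up 13.5%, 14.0% and 14.3% of adult beta counts in WT and 14.4%, 13.8% and 13.0% in K74R libraries, a difference of -0.21 points (exact permutation p = 0.7). With 3 libraries against 3, the smallest p that these tests allow is 0.1.

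The balance of alpha to beta RNA was computed from counts per kilobase. It was 0.438, 0.349 and 0.344 in WT bone marrow and 0.443, 0.401 and 0.444 in K74R bone marrow. The level of this ratio depends on how reads that fit several places were counted, which is not stated. Of the 50-base windows, 67.5% (Hba-a1) and 86.9% (Hba-a2) were shared between the alpha copies. Between the beta copies this was 65.8% (Hbb-bs) and 58.3% (Hbb-bt). WT library 1 lay among the K74R values while the other WT libraries lay below all of them. The difference of the mean log2 ratios was 0.20, with SDs of 0.20 in WT and 0.08 in K74R (exact permutation p = 0.2).

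The embryonic globin genes were close to the detection limit. Hbb-y, the embryonic epsilon-type gene, had WT counts of 2, 3 and 11 and K74R counts of 4, 2 and 1. Hbb-bh1, the other embryonic beta gene, had WT counts of 3, 3 and 0 and K74R counts of 0, 2 and 1. For Hba-x the counts were 3, 2 and 1 (WT) and 1, 1 and 0 (K74R). None of these genes passed the filter on low counts, so none was tested alone.

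Summed over the embryonic genes, WT bone marrow had 8, 8 and 12 counts against 5, 5 and 2 for K74R, and the genotypes did not overlap. Relative to adult globin, this was 19.0, 18.8 and 25.8 embryonic counts per 1000000 adult counts for WT and 10.3, 9.58 and 4.97 for K74R. The mean log2 ratio of embryonic to adult counts differed by -1.29, K74R minus WT (exact two-sided permutation p = 0.1, the smallest p possible). The difference ran from -1.45 to -1.02 over all 9 alternatives, which included the beta cluster alone (-1.05). For counting error only, the WT total of 28 counts had a 95% Poisson interval of 18.6 to 40.5. For the K74R total of 12 counts it was 6.20 to 21.0. The intervals overlapped, which is no test of whether the totals differ. Separation of the genotypes was also seen for 22.9% of single genes in this tissue. In WT library 3, Hbb-y alone gave 11 of the 12 counts, and without that library the difference was -1.15.

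**Figure D2:**
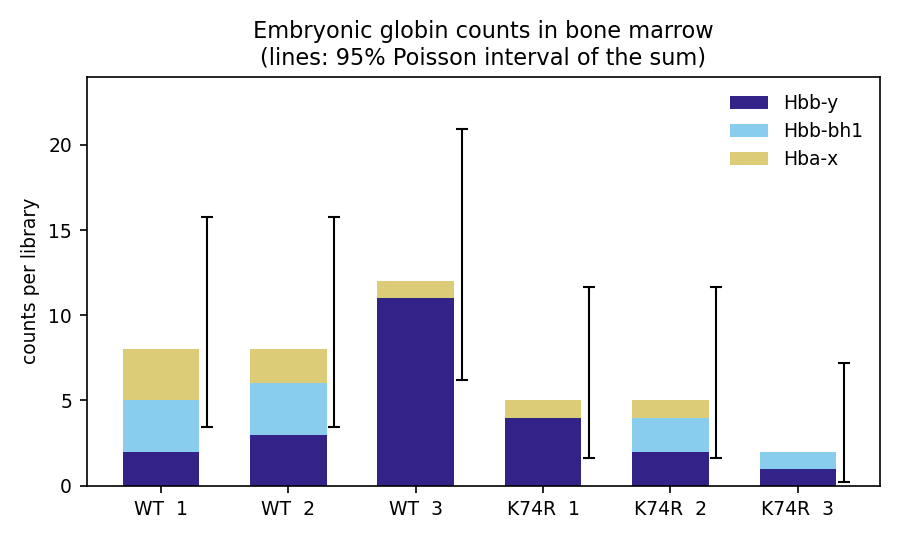
Counts of Hbb-y, Hbb-bh1 and Hba-x in each bone marrow library, stacked, with the 95% Poisson interval of the sum as a line. The WT sums of 8, 8 and 12 stand above the K74R sums of 5, 5 and 2, and the intervals of single libraries overlap.

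Adult globin RNA was set against 30 other genes of red-cell precursors, among them Slc4a1 (the band 3 anion exchanger) and Alas2 (the first enzyme of heme synthesis in red cells). Adult globin counts were 0.879, 1.11 and 1.13 times the summed erythroid counts in WT bone marrow and 1.08, 1.37 and 1.27 times in K74R bone marrow. The difference of the mean log2 ratios was 0.25, and the genotypes overlapped (exact permutation p = 0.3). In the edgeR fit 0 of the 29 erythroid genes tested were called, where 0.773% of all genes were called. At an unadjusted p under 0.05 edgeR had 2, both lower, where 17.8% of all genes stood below it. DESeq2 and limma-voom also called 0 of the 29, with 4 and 2 at an unadjusted p under 0.05. Of the 29 genes, 10 had an edgeR log2 fold change above 0 and 19 below. Their median was -0.10, and 49.9% of all genes were above 0. Car2 (carbonic anhydrase 2), 1 of the 2 at an unadjusted p under 0.05, had levels of 2796 ± 336 CPM for WT against 2196 ± 413 CPM for K74R (SD, n = 3, edgeR adjusted p = 0.263).

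Of 40 genes that regulate globin genes or globin switching, 38 were tested in bone marrow. Only Bcl11a, a repressor of embryonic and fetal globin genes, passed the threshold and it rose, where 0.511% of all genes rose. WT libraries held Bcl11a at 80.3, 76.5 and 73.5 CPM and K74R libraries at 106.3, 96.7 and 104.4 CPM, without overlap. Its log2 fold change was 0.42 (edgeR adjusted p = 0.0454). The call was lost in 9 of 16 alternatives, and the adjusted p ran from 0.00177 to 0.474 over all 16. At an unadjusted p under 0.05, 5 regulators were higher and 0 lower, where 17.8% of all genes stood below it in either direction, and the median log2 fold change of the 38 was -0.01. Klf1, the red-cell KLF, stood at 120 ± 17.2 CPM for WT against 105 ± 22.5 CPM for K74R (SD, n = 3, edgeR adjusted p = 0.541). Whether Klf1 is the mutated gene is not specified, and a point change need not alter the transcript level of the gene that carries it. Bcl11a is expressed in B cells and other blood cells as well as in red-cell precursors, and its source was not tested. Between the genotypes, the summed level of 18 markers of non-erythroid blood cells ran from 35138 to 37156 CPM for WT and from 30010 to 31918 CPM for K74R bone marrow, without overlap. Single markers of this list went both ways: 6 of the 18 were lower in K74R libraries without overlap, 3 were higher without overlap and 9 overlapped. Of all genes tested in bone marrow, 22.9% were free of overlap, in either direction. S100a8, an abundant neutrophil gene, had 6418 to 7076 CPM in WT against 4589 to 5531 CPM in K74R libraries, and Ptprc, the common leukocyte antigen, had 615 to 723 against 751 to 803 CPM. The part of this difference in the globin and regulator values was not tested.

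Other genes of the 2 globin clusters were also read in bone marrow. Hbq1b, a theta globin gene, lay between 26.8 and 43.4 CPM with a log2 fold change of -0.22 (edgeR adjusted p = 0.449). Hbq1a lay between 1.78 and 3.29 CPM, and Hbb-bh0, Hbb-bh2 and Hbb-bh3 had 0 counts in every library of the series. Of the globins outside the clusters, Mb (myoglobin) reached at most 11 counts in a bone marrow library, Cygb (cytoglobin) at most 29 and Ngb (neuroglobin) at most 1. In tumors these maxima were 47, 72 and 5 counts, and in MSC libraries 1, 267 and 2.

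MSC libraries held almost no globin RNA. WT library 2 had 8 adult globin counts, 3 of Hba-a1, 4 of Hbb-bs and 1 of Hbb-bt. K74R library 2 had 2 counts of Hba-a1, and the other libraries had 0. Hba-a2 and the 3 embryonic genes had 0 counts in each MSC library. The red-cell markers Slc4a1 and Alas2 had 0 counts and at most 4 counts per library. None of the 7 genes passed the filter, so 0 were tested and no alpha to beta ratio was computed.

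Regulators of globin genes that were expressed in MSC libraries numbered 32, and by the edgeR test 1 rose and 1 fell, where 2.05% of all 14475 genes rose and 1.29% fell. Igf2bp2, an mRNA-binding protein, rose from 27.1 ± 1.24 CPM (WT) to 86.0 ± 31.6 CPM (K74R, SD, n = 2, log2 fold change 1.67, edgeR adjusted p = 0.0471). Tal1, a transcription factor of blood and endothelial cells, fell from 9.31 ± 1.73 to 2.79 ± 0.39 CPM (log2 fold change -1.74, edgeR adjusted p = 0.0497). Tal1 is also the only one of 13 erythroid genes tested in MSC that was called. Over 15 alternatives the adjusted p ran from 2.67e-09 to 0.134 for Igf2bp2 and from 6.19e-05 to 0.203 for Tal1. The call was lost in 5 of the 15 for Igf2bp2 and in 9 of the 15 for Tal1. Markers of other cells moved with these values. Pecam1, an endothelial marker, had WT levels of 97.8 and 523 CPM against K74R levels of 3.39 and 2.77 CPM, and the 8 endothelial markers summed to 289 and 1533 against 17.4 and 24.5 CPM. Csf1r, a macrophage marker, had 1898 and 1346 against 403 and 797 CPM. The 18 blood cell markers summed to 2765 and 3839 CPM for WT against 999 and 1963 CPM for K74R, with 2 of the 18 lower without overlap and 2 higher. The sum of the 14 mesenchymal markers went the other way, from 5710 to 8182 CPM for WT against 11380 to 14041 CPM for K74R. By group mean, 11 of these 14 were higher in K74R and 3 lower. Without overlap, 9 were higher and 1 was lower. Among the 9 was Col1a1, a fibrillar collagen (1997 and 977 against 3110 and 4845 CPM). The share of all genes free of overlap was not computed for MSC. Of the 32 regulators tested there, 6 were higher and 12 lower without overlap. With 2 libraries against 2, groups are often free of overlap without a true difference. None of these MSC counts by itself shows an effect of genotype. The part of these marker differences in the result was not tested.

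In tumors, adult globin RNA was present in every library at a far lower level than in bone marrow. It took 0.0763%, 0.0230% and 0.0186% of all counts in tumors of WT hosts and 0.0111%, 0.0211% and 0.0424% in tumors of K74R hosts. Embryonic globin counts were 0 in all 6 tumor libraries. Against adult globin, the limit of 3 counts allowed 214 to 1456 embryonic counts per 1000000 adult counts, which is above every bone marrow ratio, so an equal embryonic share was not detectable at this depth. The median CPM in bone marrow was 127 times that in tumor for Hbb-bs, 136 times for Hba-a1, 137 times for Hba-a2 and 204 times for Hbb-bt. CPM were scaled within each tissue.

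None of the 4 adult globin genes passed the test between tumors of WT and K74R hosts (0 of 4 by edgeR, where 0.0406% of 14779 genes were called). The count at an unadjusted p under 0.05 was 0, where 11.2% of all genes stood below it, and it was also 0 at an adjusted p of 0.05 with DESeq2 and with limma-voom, and 0 of the 4 were free of overlap, against 17.1% of all genes. All 4 log2 fold changes were below 0, as were 48.8% of those of all genes, and their median was -0.65. Hbb-bs levels were 487.2, 143.9 and 123.7 CPM with WT hosts against 70.4, 136.2 and 273.8 CPM with K74R hosts (log2 fold change -0.65, SE 0.59, adjusted p = 0.686). WT library 1 was the highest and K74R library 1 the lowest, and the rest were mixed. Hba-a1 had the same order, with 193.4, 61.7 and 46.1 CPM (WT) and 29.6, 53.4 and 110.1 CPM (K74R). Its log2 fold change was -0.64 (SE 0.58, adjusted p = 0.688).

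Hbb-bt levels were 51.2, 15.1 and 12.8 CPM with WT hosts against 6.73, 13.8 and 26.9 CPM with K74R hosts (log2 fold change -0.74, SE 0.59, adjusted p = 0.644). Hba-a2 levels were 31.2, 8.48 and 6.27 CPM with WT hosts against 3.26, 6.94 and 19.9 CPM with K74R hosts (log2 fold change -0.62, SE 0.71, adjusted p = 0.767). For both, WT library 1 was again the highest and K74R library 3 the next. Without WT library 1 the log2 fold changes turned positive, at 0.26 for Hbb-bs, 0.25 for Hba-a1, 0.17 for Hbb-bt and 0.44 for Hba-a2. Without the filter on low counts all 4 were called lower, with adjusted p from 1.83e-11 for Hbb-bs to 0.0116 for Hba-a2. Over 16 alternatives the adjusted p of Hbb-bs ran from 1.83e-11 to 0.918.

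**Figure D3:**
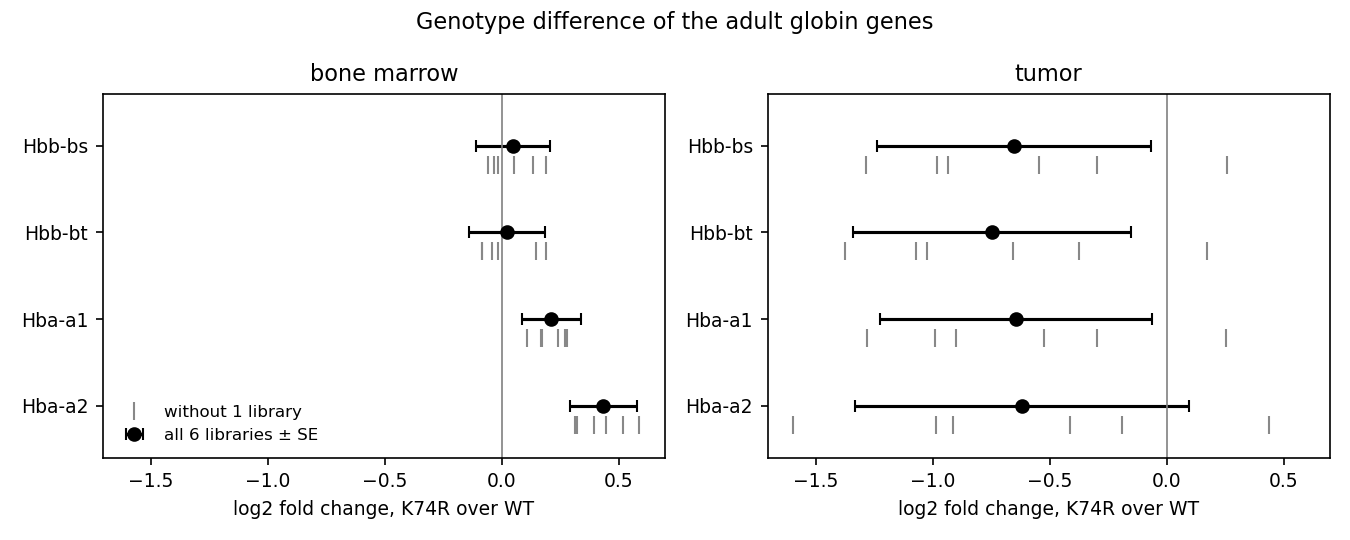
Log2 fold change of the 4 adult globin genes, K74R over WT, in bone marrow and tumor. Points with bars are the value with SE from all 6 libraries, and grey ticks are the values with 1 library left out. In tumors 1 tick of each gene lies above 0, the value without WT library 1.

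Of 18 erythroid genes that reached a mean of 1 CPM in tumors of either genotype, 2 (Alas2 and Slc4a1) put the 6 libraries in the same order as summed adult globin. Alas2 levels were 43.2, 12.8 and 9.46 CPM (WT) and 6.67, 9.63 and 22.5 CPM (K74R). Slc4a1 levels were 2.94, 0.895 and 0.723 CPM (WT) and 0.641, 0.751 and 1.91 CPM (K74R). For Slc4a1, WT library 3 and K74R libraries 1 and 2 each had 12 counts, so their order among themselves reflects library size alone. WT library 1, the highest in globin, was the highest for 6 of the 18 and the lowest for 3. Car2, for example, had 7.08, 8.53 and 10.5 CPM (WT) and 5.29, 7.19 and 8.26 CPM (K74R), an order unlike that of globin. In the whole erythroid list, 18 of 30 genes reached a mean of 1 CPM in WT and 17 in K74R tumors, and 2 had 0 counts in each. The summed list, which holds genes such as Tfrc (the transferrin receptor) that other dividing cells express, spanned 1375 to 1604 CPM for WT hosts and 1284 to 1683 CPM for K74R hosts, and WT library 1 was the lowest of the WT libraries. Summed markers of non-erythroid blood cells ran from 483 to 558 CPM with WT hosts and from 301 to 452 CPM with K74R hosts, and endothelial markers from 170 to 203 CPM and from 133 to 159 CPM, both sums without overlap. Of the single markers, 4 of 18 and 2 of 8 were lower with K74R hosts without overlap and 0 were higher without overlap. Of all genes tested in tumors, 17.1% were free of overlap, in either direction. The part of red-cell content or of these other cells in the globin values of the tumors was not tested.

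**Figure D4:**
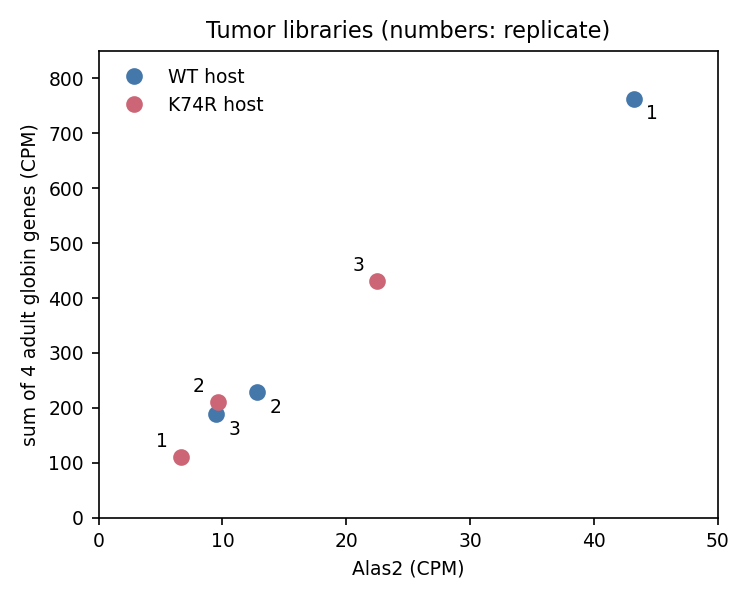
Summed CPM of the 4 adult globin genes against Alas2 CPM in the 6 tumor libraries, numbered by replicate. WT library 1 and K74R library 3 stand apart from the other 4 on both axes.

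By Pearson's r on log2(CPM + 0.5) over the 6 tumor libraries, Alas2 was the gene most like summed adult globin among 9559 genes (r = 0.989), followed by Prkar2b (0.981), Tent5c (0.964), Ppp2r5a (0.961) and Slc9a9 (0.946). In bone marrow the leading genes of 9102 were Ints11 (0.977), Lonp2 (0.972), Pxmp4 (0.972), AI662270 (0.966) and Rpl3 (0.963), and Alas2 ranked 374 (0.66). These values describe 6 libraries of both genotypes, which share their scaling within a tissue.

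Alpha to beta balance in tumors was 0.403, 0.425 and 0.369 in WT and 0.409, 0.386 and 0.419 in K74R tumors by counts per kilobase. The genotypes overlapped, with a difference of mean log2 ratios of 0.02 (exact permutation p = 0.7). Hbb-bt made up 9.50%, 9.50% and 9.40% of adult beta counts in WT and 8.72%, 9.17% and 8.95% in K74R tumors. The genotypes did not overlap, and the difference was -0.52 percentage points (exact permutation p = 0.1, the smallest possible). The 95% Wilson interval of K74R library 1, from 7.37% to 10.3% on 1445 beta counts, held all 3 WT values. Hba-a2 made up 13.9%, 12.1% and 12.0% of adult alpha counts in WT and 9.90%, 11.5% and 15.3% in K74R tumors (difference -0.41 points, exact permutation p = 0.8).

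**Figure D5:**
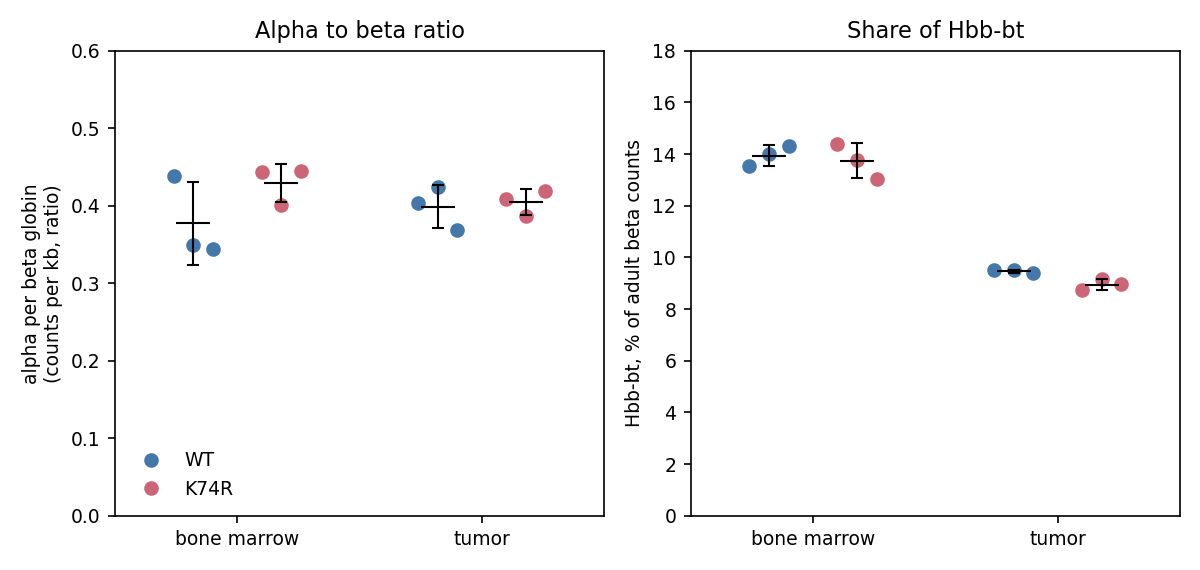
Alpha to beta ratio by counts per kb (left) and Hbb-bt as a percentage of adult beta globin counts (right), 1 point per library, with group mean and SD (n = 3 libraries). Alpha to beta ratios overlap between tissues and genotypes, and the Hbb-bt share lies at 13.0% to 14.4% in bone marrow and at 8.72% to 9.50% in tumors.

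Adult globin counts were 0.555, 0.162 and 0.118 times the summed erythroid counts in WT tumors and 0.0654, 0.164 and 0.303 times in K74R tumors. The difference of the mean log2 ratios was -0.57 (exact permutation p = 0.7). Tfrc, which other dividing cells express, gave 14686 of the 25234 erythroid counts in WT tumor library 1. In K74R tumor library 1 it gave 22380 of 31517, so this ratio rests in large part on Tfrc. Of the erythroid genes, 18 were tested, and edgeR, DESeq2 and limma-voom each called 0. With edgeR, 0 stood at an unadjusted p under 0.05. The smallest edgeR p-values were those of Epb41 (a red-cell membrane skeleton protein, 119 ± 10.1 CPM against 106 ± 8.49 for K74R, SD, n = 3, edgeR adjusted p = 0.499) and Sptb (beta spectrin, 1.73 ± 0.43 and 1.22 ± 0.30 CPM, edgeR adjusted p = 0.563). Of the regulators, 38 were tested and 0 called by edgeR, 6 stood at an unadjusted p under 0.05, 2 higher and 4 lower, where 0.0406% of all genes were called and 11.2% stood under that p, and DESeq2 called 1 and limma-voom 0. Atf4, a stress-response factor, had the smallest p (281 ± 33.6 CPM against 398 ± 68.0 for K74R, SD, n = 3, log2 fold change 0.50, edgeR adjusted p = 0.306), and Runx1, a factor of blood cell formation, followed (86.0 ± 2.92 and 68.0 ± 11.7 CPM, log2 fold change -0.34, edgeR adjusted p = 0.370).

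Whether the genotype difference itself differed between bone marrow and tumor was tested with an interaction contrast over all 16 libraries. It was called for 0 of the 4 adult globin genes (0 at an unadjusted p under 0.05 with edgeR, and 0 called with limma-voom), where 0.0385% of 18191 genes were called. The bone marrow log2 fold change exceeded that in tumor by 0.70 for Hbb-bs, 0.77 for Hbb-bt, 0.85 for Hba-a1 and 1.05 for Hba-a2, with SEs of 0.66 to 0.80 and edgeR adjusted p-values of 0.643 to 0.743. Without WT tumor 1 these values were -0.21, -0.15, -0.04 and 0.0050, so the differences rest on that library.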

How the data were processed

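The authors deposited raw counts per gene in 1 table, 1 column for each of 16 libraries. Libraries came from TRIzol-extracted RNA and the KAPA mRNA HyperPrep kit, per the labels' protocols. The submitters' processing notes name Trimmomatic 0.38, HISAT2 2.1.0, featureCounts 1.6.0, FastQC, MultiQC and GRCm38. The sources used here do not state the annotation release, the strand setting or how multi-mapping reads were counted. Reads of overlapping genes therefore cannot be told apart.

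Row identifiers were matched to GENCODE M21, and all 55536 matched. K74R was compared with WT within each tissue in edgeR 4.0.16 (R 4.3.3): filterByExpr, scaling by trimmed mean of M-values, the quasi-likelihood test and Benjamini-Hochberg adjustment over all genes tested, with a threshold of 0.05. CPM use the filtered library size times its scaling factor. Values per kilobase use the merged length of all annotated exons of a gene, which can exceed that of a single transcript. The SE of a log2 fold change was derived from its F statistic. Ratios and shares were computed per library, after adding 0.5 counts for log2 ratios of alpha to beta and of embryonic to adult genes, and compared with exact two-sided permutation tests. Ratios with Ahsp, ratios in MSC and the embryonic ratio in tumors were not computed.

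Named were all matched genes, the regulators and erythroid genes past the threshold (or the 2 with the smallest p), other globin genes, and the 5 genes most like adult globin with a mean of at least 10 CPM. Results for some of the named genes are not reported here. The genes, lists and tests were chosen with earlier results of these data known. Single markers of other cells and Car2 in tumors were named after their values were seen, and counts of markers by direction were added then too. The share of Hba-a2 in alpha globin and the comparison of shares and ratios between tissues were added after the data were seen. The fit was tested on simulated data. Alternatives were other scalings and filters, DESeq2 1.42.0, limma-voom (limma 3.58.1), all 16 libraries in one model, the replicate number as a block and each library left out in turn.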

Additional observations from a re-analysis of the deposited data

How the results depend on the processing

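Globin results that crossed a threshold did so in few settings. In bone marrow 1 globin gene, Hba-a2, was called without the filter on low counts and with DESeq2, and in tumors 4 were called without the filter. The interaction between tissues gave 0 calls under all 16 alternatives. Leaving out 1 library, the log2 fold change in bone marrow ran from -0.084 to 0.19 for Hbb-bt (below 0 without WT 1, WT 2, K74R 1 or K74R 2) and from -0.060 to 0.189 for Hbb-bs (below 0 without WT 1, WT 2 or K74R 2). In tumors it ran from -1.37 to 0.17 for Hbb-bt, from -1.28 to 0.26 for Hbb-bs, from -1.28 to 0.25 for Hba-a1 and from -1.60 to 0.44 for Hba-a2, above 0 only without WT 1. The interaction ran from -0.15 to 1.39 for Hbb-bt, from -0.21 to 1.33 for Hbb-bs and from -0.039 to 1.49 for Hba-a1, below 0 only without WT tumor 1. Leaving out 1 library moved the Hbb-bt share in bone marrow between -0.541 and 0.139 points. In tumors it moved the alpha to beta log2 difference between -0.03 (-0.0326 without WT 3 and -0.00303 without K74R 3) and 0.0686, the adult to erythroid difference between -1.08 and 0.10 (0.102 without WT 1 and 0.0229 without K74R 1), and the Hba-a2 share between -1.93 and 0.759 points (0.211 without WT 1 and 0.759 without K74R 1). The cause of these changes was not tested.

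Counts of regulators called in bone marrow (1) became 0 with library size alone, limma-voom or all libraries in one model, 2 with DESeq2 and 3 without the filter, and ran from 0 to 3 with 1 library left out. Erythroid genes (0) became 1 without the filter and ran from 0 to 1 with 1 library left out, the 1 without K74R 1. In MSC, regulators (2) became 1 with relative log expression scaling, upper quartile scaling or a filter of 1 CPM, 0 with library size alone or limma-voom, 5 with DESeq2, 6 without the filter and 12 in the model of all libraries, and ran from 0 to 2 with 1 library left out. Erythroid genes in MSC (1) became 0 with relative log expression scaling, upper quartile scaling, library size alone, a filter of 1 CPM or limma-voom, 4 with DESeq2, 6 without the filter and 10 in the model of all libraries, and ran from 0 to 2. In tumors, regulators (0) became 3 without the filter and 1 with DESeq2, and erythroid genes (0) became 1 without the filter.

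The replicate number was also used as a block. Deviations of same-numbered libraries correlated at 0.31, 0.15 and -0.13 in bone marrow and at 0.03, -0.03 and 0.08 in tumors. With 3 libraries in each group, these correlations cannot decide whether same-numbered libraries were handled together. The labels do not say so. With the replicate block, regulators called in bone marrow became 0, regulators and erythroid genes in MSC each became 3 and no globin call changed. In MSC the correlations were -0.20 and -0.20, and with crossed pairing, added after the data were seen, 6 regulators and 3 erythroid genes were called. With 2 libraries in each MSC group, deviations from the group mean are mirror images. The MSC correlations are therefore the same number by construction and cannot decide between the pairings.

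With 3 libraries against 3, exact tests cannot go below 0.1, and embryonic sums of 2 to 12 counts limit what the depth can show.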

Other observations

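After the data were seen, copy shares and ratios were also compared between bone marrow and tumor over both genotypes, 6 libraries each, in 4 measures. Hbb-bt made up 13.8 ± 0.51% of adult beta globin counts in bone marrow and 9.21 ± 0.32% in tumors (SD, n = 6), a difference of -4.63 percentage points (exact two-sided permutation p = 0.00216, the smallest possible, 0.00433 after Benjamini-Hochberg adjustment over the 4 measures). All 6 tumor libraries lay below all 6 bone marrow libraries, and the difference was -4.47 points in WT libraries alone and -4.79 points in K74R libraries alone (exact permutation p = 0.1 in each, the smallest possible). Hbb-bs and Hbb-bt share much of their sequence, and whether reads were assigned alike in both tissues was not tested.

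Over both genotypes, the other alpha and beta measures overlapped between the tissues. The mean log2 ratio of alpha to beta per kilobase was -1.32 ± 0.17 in bone marrow and -1.32 ± 0.08 in tumors (SD, n = 6, exact permutation p = 0.985). Hba-a2 made up 11.5 ± 1.2% of alpha counts in bone marrow and 12.4 ± 1.89% in tumors (exact permutation p = 0.305). In WT libraries alone, this share ran from 9.82% to 11.8% in bone marrow and from 12.0% to 13.9% in tumors, without overlap (difference 1.96 points, exact permutation p = 0.1, the smallest possible), and in K74R libraries alone the tissues overlapped (difference -0.03 points, exact permutation p = 0.9). Adult globin relative to the summed erythroid genes differed by -2.65 on the log2 scale, tumor minus bone marrow (exact permutation p = 0.00216, adjusted 0.00433), and in tumors that sum holds genes that other cells express.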
